A study of Homo sapiens with 12 samples.

Results

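The 7 genes described here encode the NF-κB subunits NFKB1, NFKB2, REL, RELA and RELB and the feedback inhibitors NFKBIA and TNFAIP3. Their members were every ATAC-seq region that touched one of these gene bodies in the GENCODE annotation or the 50 kb on either side, which gave 193 of 355394 regions in all, and no region lay in 2 windows. ATAC-seq reads accessible chromatin through the cuts of the Tn5 transposase, here in KO-52 cells, an AML line whose CEBPA alleles are both mutated, a background that every group shared, EV included. The cells carried an empty vector (EV), the full-length isoform p42 or the shorter isoform p30 of CEBPA, and were kept in DMSO or in tunicamycin (Tm) at 2 µg/mL for 8 h, a drug that blocks N-glycosylation and causes ER stress. Each of the 6 conditions had 2 libraries of 50000 nuclei, 12 in all. The 2 libraries of a condition were pooled into 1 peak list, so no value below has a replicate spread, and no difference between lists was tested.

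NF-κB proteins bind DNA as dimers that are held in the cytoplasm by IκB proteins until an inflammatory or stress signal releases them. RELA, REL and RELB carry transactivation domains, whereas NFKB1 and NFKB2 encode precursors that are processed to the DNA-binding partners p50 and p52. NFKBIA encodes IκBα, which retains the dimers, and TNFAIP3 encodes the ubiquitin-editing enzyme A20, which shuts down signalling upstream. Both inhibitors are classical NF-κB targets, and so are several subunit genes, so the pathway restrains and renews itself in myeloid cells.

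The lists held between 187704 peaks (EV DMSO) and 254239 peaks (p42 DMSO), and their estimated depth ran from 22250000 to 29980000 tags, with p42 DMSO the deepest and longest. Strength is given as a within-list percentile, in which 100 is the peak with the highest −log10 q of its list. A longer list holds more weak peaks and so lifts the percentile of a shared region: over the 114533 regions with a peak in all 6 lists the median was 76.7 in p42 DMSO and 69.0 in EV DMSO. A region without a peak was below the calling threshold (q of 0.05), which does not show that it was closed. Of the markers used to check the labelled cell type, all 7 myeloid promoters had a peak in every list and none of the 3 erythroid promoters had one in any, but all 3 B cell, all 3 T cell and 2 of 3 epithelial promoters had one too. Promoter peaks thus did not separate myeloid from lymphoid identity.

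The promoters of 4 of the 6 genes with a RefSeq entry carried an exact match to the κB consensus in the 250 bases before the start, namely NFKBIA, TNFAIP3, REL and NFKB2. Such a match stood in 4.981% of 27305 RefSeq promoters, and NFKB1 and RELA had none. The stretches that hold the matches are shown because they are the DNA that NF-κB dimers themselves could read at these genes. They are written 5′ to 3′ on the strand of the gene (GRCh38.p14), with κB matches in capitals, for NFKBIA at chr14:35404750-35404999 (minus strand), TNFAIP3 at chr6:137867009-137867213, REL at chr2:60881517-60881546, and NFKB2 at chr10:102395519-102395548 and chr10:102395674-102395703 (all plus strand).
NFKBIA promoter: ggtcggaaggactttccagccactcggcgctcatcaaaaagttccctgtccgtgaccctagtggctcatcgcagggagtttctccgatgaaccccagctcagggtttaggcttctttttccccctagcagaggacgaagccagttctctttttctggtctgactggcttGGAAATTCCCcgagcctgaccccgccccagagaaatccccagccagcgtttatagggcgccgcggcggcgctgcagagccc
TNFAIP3 promoter: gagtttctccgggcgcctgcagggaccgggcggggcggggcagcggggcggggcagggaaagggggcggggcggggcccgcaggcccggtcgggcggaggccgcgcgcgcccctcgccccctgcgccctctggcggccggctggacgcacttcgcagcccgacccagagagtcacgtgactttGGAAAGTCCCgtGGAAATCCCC
REL promoter: cgtcagccgcGGGAAATTCCCctcccgcca
NFKB2 first match: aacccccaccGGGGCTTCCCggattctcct
NFKB2 second match: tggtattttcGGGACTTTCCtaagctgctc
The match in NFKBIA lay 81 to 72 bases before the start, and the pair in TNFAIP3 lay 67 to 58 and 55 to 46 bases before it. The palindromic site of REL matched on both strands, and its plus-strand match began 47 bases before the start. The stretches of NFKBIA, TNFAIP3 and REL lay in the promoter regions described next. At NFKB2 the 250 bases lay over a second region, 1.5 kb inside the GENCODE gene, called in every list, that covered 171 of them, the second match wholly and the first in part.

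All 7 promoters had a peak in all 6 conditions, and at none of them did the summit heights of any pair of lists differ beyond their counting intervals. A promoter peak in all 6 lists was found at 75.6% of 20033 protein-coding genes. RELA, the main transactivating subunit, had its promoter region (chr11:65662695-65663771) at the percentiles 99.2 and 97.1 in p42 cells (DMSO and Tm), 92.7 and 88.3 in p30 cells, and 91.9 and 93.4 in EV cells. RELB, the partner of p52 in the non-canonical pathway, stood at 98.5 and 96.9 in p42 cells, 95.4 and 95.1 in p30 cells, and 93.8 and 95.2 in EV cells. At both genes the p42 lists held the highest values in this ranking. Ranked by fold enrichment this order stayed at RELA but was lost at RELB, with 91.5 and 89.3 in p42, 91.6 and 91.2 in p30, and 87.8 and 90.5 in EV cells. Summit heights are given as tags scaled to 10000000 of estimated depth (scaled tags). At RELA they were 16.7 and 16.5 scaled tags in p42 cells, 13.6 and 13.4 in p30 cells and 14.8 and 14.7 in EV cells, which lay within each other's exact 95% Poisson intervals.

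REL, which encodes the subunit c-Rel of blood cells, had its highest promoter percentile in p30 DMSO, with 98.3 against 93.1 in p42 DMSO and 90.8 in EV DMSO. After Tm the REL promoter stood between 90.3 (EV) and 91.7 (p30). NFKB1 had 89.2 and 86.7 in p42 cells (DMSO and Tm), 90.4 and 84.4 in p30 cells, and 80.9 and 87.4 in EV cells. NFKB2 had 92.5 and 93.5, 87.0 and 91.5, and 80.8 and 88.8 in the same order. For both precursor genes EV DMSO was therefore the lowest list. The median of all 15149 promoters with a peak in all 6 lists was also lowest in EV DMSO (89.9) and highest in p42 DMSO (92.4). The second NFKB2 region, over the κB matches shown above, was weaker throughout, with 76.7 and 68.6 in p42, 70.1 and 54.7 in p30, and 60.3 and 54.1 in EV cells.

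At the inhibitors the order was different. NFKBIA was lowest in p42 DMSO (86.1) and highest in p30 Tm (95.1), with 89.2 in p42 Tm, 87.1 in p30 DMSO, and 90.6 and 89.6 in EV cells. TNFAIP3 was highest in p42 Tm (94.8) and lowest in p30 DMSO (88.2), with 90.7 in p42 DMSO, 92.4 in p30 Tm, and 89.6 and 90.8 in EV cells. Tm minus DMSO at the NFKBIA promoter was 3.1 points with p42, 8.0 with p30 and -1.0 with EV, and at TNFAIP3 4.1, 4.2 and 1.2 points. A rise in every line was also seen at the subunit gene NFKB2 (1.0, 4.5 and 7.9 points). REL fell in every line (-2.7, -6.6 and -0.6), and NFKB1, RELA and RELB fell with p42 and p30 and rose with EV. Over all 15149 promoters with a peak in all 6 lists the median Tm difference was -0.6, -0.5 and 0.6 points. The NFKBIA promoter went from 14.7 (95% interval 10.5 to 20.1) to 20.4 (15.0 to 27.1) scaled tags with Tm in p30 cells, but the intervals overlapped. For all 7 promoters together, the intervals overlapped in each of the 105 pairs of lists compared. These intervals cover counting error only. The promoters ranged by 4.7 (RELB) to 12.7 points (NFKB2) over the lists, around the median range of 8.0 for all promoters.

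The loci differed in how many regions surrounded these promoters. NFKB1, the longest gene, had 36 regions, TNFAIP3 33, NFKB2 31, REL 31, NFKBIA 25, RELA 19 and RELB 18. A peak in all 6 lists was found for 87 of the 193 regions (45.08%, 95% Wilson interval 38.22 to 52.13), against 32.2% of all regions, and a peak in a single list for 46 (23.83%), against 34.2%. The share in all 6 lists was highest at RELB (12 of 18) and RELA (12 of 19), where 11 and 13 of the regions lay at the promoter of a protein-coding gene, and lowest at NFKB1 (13 of 36). At NFKB2 16 of 31 regions lay at such a promoter and 13 were in all 6 lists, and a link between the 2 counts was not tested. The percentile of these 87 regions ranged by a median of 18.3 points over the lists, against 22.3 for all such regions. REL had the widest median range among the members, with 41.4 points over its 14 regions, and RELA the narrowest, with 12.5 points over 12.

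Regions with a peak numbered 149 in p42 DMSO, 125 in p42 Tm, 131 in p30 DMSO, 108 in p30 Tm, 124 in EV DMSO and 118 in EV Tm. As shares of the 193 regions these were 77.2, 64.77, 67.88, 55.96, 64.25 and 61.14% in the same order. Over all 355394 regions the shares were 69.28, 56.78, 56.06, 49.39, 50.39 and 51.98%, each lower than that of the members. The p42 DMSO list was the highest at NFKB1, NFKB2, REL, RELA and TNFAIP3, whereas p30 DMSO was the highest at RELB, with 15 regions, and at NFKBIA, with 19. At TNFAIP3 26 regions had a peak in p42 DMSO and 17 in each p30 list. At NFKB1 the counts ran from 17 in p30 Tm to 29 in p42 DMSO. The count over all regions was also highest in p42 DMSO.

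**Figure D1:**
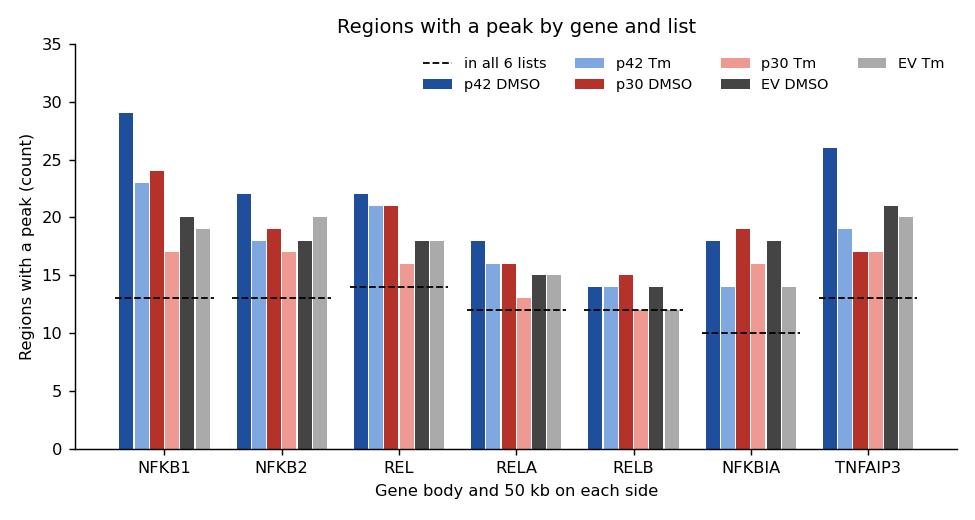
Number of regions with a peak (y axis) in the gene body and 50 kb on each side, by gene and list (bars), with the number in all 6 lists as a dashed line. The p42 DMSO bar is the tallest at 5 of the 7 genes, and p30 DMSO is the tallest at RELB and NFKBIA.

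In DMSO, 37 of the 168 regions open in either p42 or p30 cells had a peak in p42 alone (22.02%, interval 16.42 to 28.88), against 30.8% of all regions. The reverse was found for 19 regions (11.31%, 7.361 to 16.99), against 14.5%. TNFAIP3 contributed 11 of the former and 2 of the latter, NFKB1 6 and 1, and NFKBIA 5 and 6. NFKBIA was thus the locus with more p30-only than p42-only regions besides RELB, which had 1 and 2. The order of the totals turned when each list was cut to its 187339 strongest peaks: 14 of 140 regions were then open in p42 alone (10.0%, against 20.8% of all regions) and 27 in p30 alone (19.29%, against 20%). The direction was kept under a depth-scaled threshold (33 in p42 alone and 22 in p30 alone) and by 50% overlap per peak (47 and 26). The cut to equal length removes more weak peaks from p42 DMSO, the longest list, than from p30 DMSO. It therefore cannot separate list length from a difference between the lines, and the part of list length was not tested. After Tm, 29 of 137 regions were open in p42 and not in p30 (21.17%, against 26.1%) and 12 in p30 and not in p42 (8.759%, against 15.1%). Against EV in DMSO, 40 regions were open with p42 alone (24.39%, background 35.4%) and 15 in EV alone (9.146%, 11.2%). The p30 cells had 23 regions that EV lacked (15.65%, 22.4%), and EV had 16 that p30 lacked (10.88%, 13.7%). At the deposited list lengths each of these shares was lower in the members than in all regions. The members also had stronger peaks, with a median percentile of 81.7 in p42 DMSO for those in all 6 lists, against 76.7 for all such regions, and the part of peak strength in this was not tested.

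For gaps between lists, a list without a peak was placed at the bottom of the percentile scale, so some gaps were to lists below the calling threshold. Both p42 lists stood at least 10 percentile points above all 4 other lists in 15 of the 193 regions (7.772%, interval 4.766 to 12.43), which was the background of 7.67%. They stood as far below in 9 regions (4.663%, 2.472 to 8.624), against 1.59%. As the members are open in more lists than most regions, the latter was also counted among regions with a peak in all 4 p30 and EV lists, where it held for 9 of 93 (9.677%, 5.175 to 17.38), against 4.54%. The intervals treat regions as independent although some lie close together at 1 locus, so they are no test of an excess. Among regions with a peak in both p42 lists, 15 of 111 members stood above (13.51%, 8.363 to 21.1), against 16.1%. At equal list length 5 regions stood above (2.941%, against 4.79%) and 11 below (6.471%, against 3.61%). These 24 regions fell at NFKBIA (4 above and 3 below), NFKB1 (4 and 2), REL (2 and 2), RELA (2 and 1), NFKB2 (1 and 1) and TNFAIP3 (2 and none), and none at RELB. Peaks in both p42 lists and in no other were found in 7 regions (3.627%, against 4.58%), and only the p42 lists lacked a peak in 3 (1.554%, against 0.802%), all at NFKBIA.

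**Figure D2:**
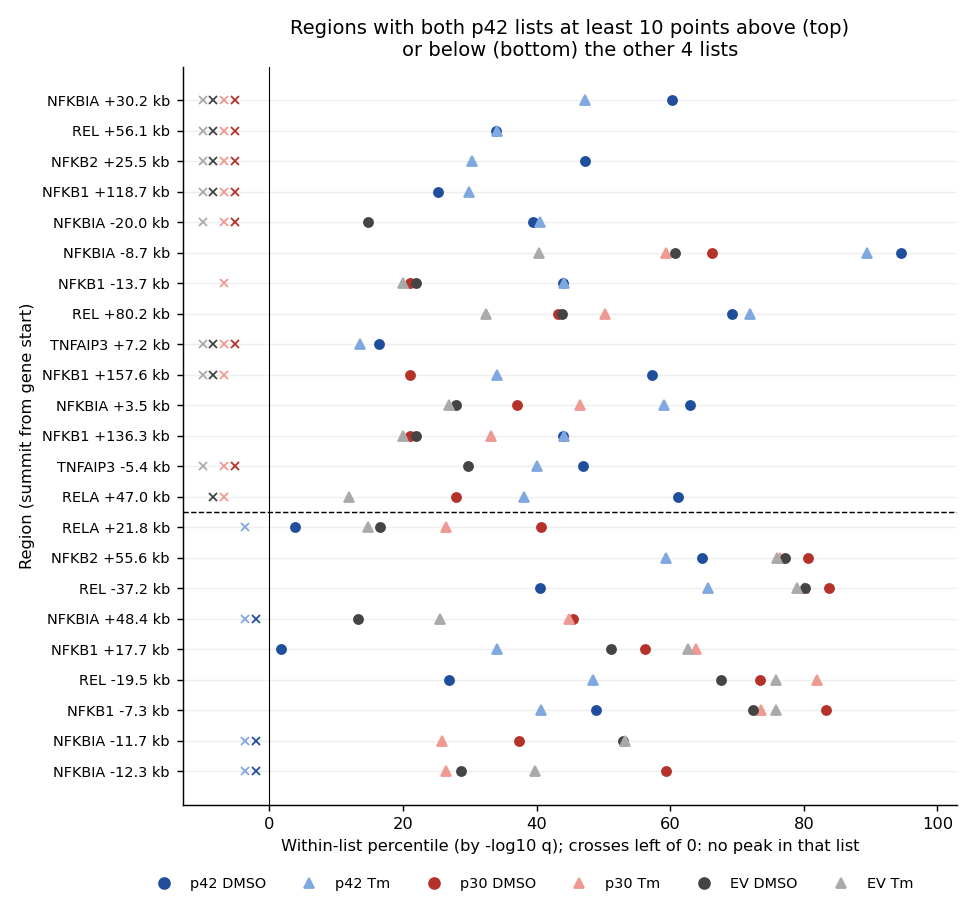
Within-list percentile (x axis) of the regions in which both p42 lists stood at least 10 points above (top) or below (bottom) the other lists, without 1 that is not reported here, named by gene and distance of the summit from the gene start in kb. Crosses left of 0 mark lists without a peak, and the 3 NFKBIA regions at the bottom without p42 symbols had peaks in p30 and EV cells.

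NFKBIA showed both directions within a short stretch upstream. At 8.7 kb before the gene (chr14:35413322-35413537, intergenic), the percentile was 94.6 in p42 DMSO and 89.4 in p42 Tm, 66.2 and 59.3 in p30 cells, and 60.7 and 40.4 in EV cells. Its summit held 32 and 24 tags in p42 cells, 15 and 13 in p30 cells, and 13 and 10 in EV cells, so the p42 values did not overlap with the others. In scaled tags this was 10.7 (7.3 to 15.1) in p42 DMSO and 5.7 (3.2 to 9.3) in p30 DMSO, so the counting intervals still overlapped. Just beyond it, at 11.7 kb (chr14:35416093-35416501), the p42 lists had no peak, whereas p30 cells had 37.3 and 25.9 and EV cells 52.9 and 53.3. At 12.3 kb (chr14:35416961-35417138) p42 again had none, against 59.3 and 26.4 in p30 and 28.7 and 39.8 in EV cells. These were weak peaks of 8 to 13 summit tags.

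Downstream of NFKBIA, at 30.2 kb from its start (chr14:35374306-35374668, intergenic), only p42 cells had a peak, with percentiles of 60.3 in DMSO and 47.2 in Tm and 12 and 9 summit tags. An intronic region at 3.5 kb (chr14:35401226-35401406), near the end of the gene, stood at 63.0 and 59.0 in p42 cells, 37.0 and 46.5 in p30 cells, and 28.0 and 26.9 in EV cells. At 48.4 kb (chr14:35356063-35356418) the pattern was the opposite, with no p42 peak, 45.4 and 44.9 in p30 and 13.3 and 25.5 in EV cells. The strongest distal region of the locus, at 13.5 kb (chr14:35390976-35391362), was shared, with 84.8 and 85.3 in p42, 94.4 and 88.6 in p30, and 90.6 and 85.1 in EV cells. The DNA within 100 bp of the summit of 3 of these regions, chosen as the ones that set p42 apart on both sides of the gene, is shown on the plus strand of hg38, with AP-1 matches (TGANTCA) in capitals, at chr14:35413337-35413537, chr14:35374481-35374681 and chr14:35416987-35417187.
NFKBIA 8.7 kb upstream, higher in p42: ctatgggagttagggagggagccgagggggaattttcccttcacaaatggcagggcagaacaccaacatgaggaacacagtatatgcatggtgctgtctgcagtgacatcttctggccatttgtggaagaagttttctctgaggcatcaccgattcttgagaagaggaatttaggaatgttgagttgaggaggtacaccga
NFKBIA 30.2 kb downstream, p42 lists alone: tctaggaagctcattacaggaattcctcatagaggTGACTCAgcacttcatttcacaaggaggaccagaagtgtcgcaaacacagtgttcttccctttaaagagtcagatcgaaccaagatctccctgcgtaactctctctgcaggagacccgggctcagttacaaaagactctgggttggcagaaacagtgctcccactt
NFKBIA 12.3 kb upstream, absent from p42 lists: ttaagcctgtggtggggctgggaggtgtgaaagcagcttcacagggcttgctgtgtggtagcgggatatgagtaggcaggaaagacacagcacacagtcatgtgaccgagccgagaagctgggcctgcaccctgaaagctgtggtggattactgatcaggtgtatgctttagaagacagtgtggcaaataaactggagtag
The first and the last held no exact match to any of the 6 motifs searched, and the second held 1 AP-1 match.

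**Figure D3:**
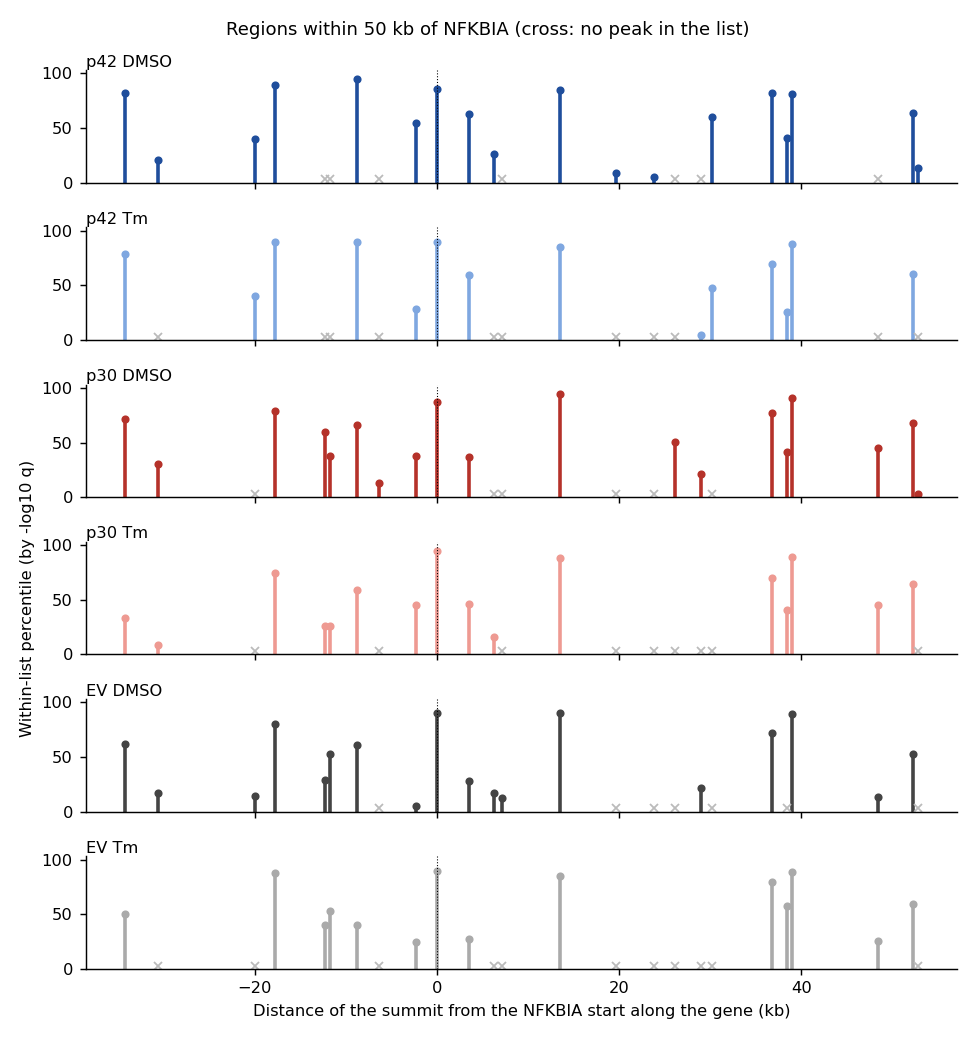
Regions around NFKBIA in the 6 lists, with the distance of the summit from the gene start along the direction of transcription in kb (x axis) and the within-list percentile (y axis), and a cross where the list had no peak. The bar at -8.7 kb reaches 94.6 in p42 DMSO and 40.4 in EV Tm, and the pair at -11.7 and -12.3 kb is seen in the p30 and EV lists.

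At REL, regions that set p42 apart lay on either side of the gene. At 19.5 kb upstream (chr2:60861751-60862188), in an intron of the divergent lncRNA REL-DT, p42 cells had 26.9 and 48.4, p30 cells 73.4 and 82.0, and EV cells 67.6 and 75.9. The summit tags were 7 and 9 in p42, 17 and 21 in p30, and 14 and 18 in EV cells, without overlap between p42 and the other lines. A further REL-DT intron region at 37.2 kb upstream (chr2:60844070-60844510) had 40.5 and 65.7 in p42, 83.8 and 80.1 in p30, and 80.2 and 79.0 in EV cells. There p42 DMSO had 2.7 scaled tags (1.2 to 5.3), below the intervals of p30 DMSO (9.0, 5.8 to 13.5), p30 Tm and EV DMSO. Both regions contained an AP-1 match. The opposite order was seen 80.2 kb downstream of the start (chr2:60961429-60961913, an intron of PUS10), with 69.3 and 72.0 in p42, 43.2 and 50.3 in p30, and 43.8 and 32.5 in EV cells. Its summit DNA held a C/EBP match (TTGCNNAA) and 2 AP-1 matches. Both stretches are shown, on the plus strand of hg38, because they oppose each other at 1 gene and hold matches to both motifs in capitals, at chr2:60861878-60862078 and chr2:60961568-60961768.
REL 19.5 kb upstream, lower in p42: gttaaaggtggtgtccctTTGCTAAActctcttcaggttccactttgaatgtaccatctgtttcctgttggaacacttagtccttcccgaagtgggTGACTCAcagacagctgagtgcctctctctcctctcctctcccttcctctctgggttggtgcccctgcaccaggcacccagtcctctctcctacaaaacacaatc
REL 80.2 kb downstream, higher in p42: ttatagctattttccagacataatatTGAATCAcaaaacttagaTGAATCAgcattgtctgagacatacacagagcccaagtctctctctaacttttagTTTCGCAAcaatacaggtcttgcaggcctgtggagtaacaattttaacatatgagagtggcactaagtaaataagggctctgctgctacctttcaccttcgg

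At NFKB1 both p42 lists stood at least 10 points below the others in 2 regions near its start, and above them in 4. At 7.3 kb upstream (chr4:102493634-102494221, intergenic) the percentiles were 48.9 and 40.7 in p42, 83.3 and 73.6 in p30, and 72.4 and 75.8 in EV cells. The summit tags there were 9 and 8 in p42 cells against 15 to 20 in the other lists. In the first part of the gene, at 17.7 kb (chr4:102518707-102519139, intron), p42 had 1.7 and 34.0, p30 56.3 and 63.8, and EV 51.1 and 62.7. The weak p42-only region at 118.7 kb (chr4:102620035-102620151) had 25.3 and 29.9. The strongest distal region, at 124.4 kb (chr4:102625626-102625837), with a C/EBP match, was between 96.8 and 99.7 in all 6 lists. At NFKB1 the EV lists stood apart in 2 regions. At 108.9 kb (chr4:102610142-102610311, intron) EV cells had 57.1 and 68.6 against 80.6 to 88.7 in the 4 p42 and p30 lists. At 0.8 kb before the start EV cells had 55.2 and 58.4 against 70.6 to 80.3.

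The strongest distal region of RELA, at 43.4 kb upstream (chr11:65706168-65706620), was shared by all lists at 91.0 to 96.8. TNFAIP3 had its strongest region 60.8 kb downstream of the start (chr6:137927743-137928228, intergenic), where the percentile was 99.98 and 99.58 in p30, 99.28 and 99.92 in EV, and 93.91 and 86.96 in p42 cells. Near the top of the scale the percentile leaves little room, and the summit held 38 and 31 tags in p42 cells against 60 and 53 in p30 and 46 and 57 in EV cells. This was 12.7 (9.0 to 17.4) and 12.2 (8.3 to 17.3) scaled tags in p42, against 20.7 to 23.0 in the other lists, whose intervals began at 15.1 to 17.3 and still overlapped with those of p42. The percentile gap was under 10 points, so this region is not among the 9 counted above. The summit stretches of the p42-lowered NFKB1 and TNFAIP3 regions are shown on the plus strand of hg38, at chr4:102493960-102494160 and chr6:137927873-137928073, and neither held an exact match to the 6 motifs.
NFKB1 7.3 kb upstream, lower in p42: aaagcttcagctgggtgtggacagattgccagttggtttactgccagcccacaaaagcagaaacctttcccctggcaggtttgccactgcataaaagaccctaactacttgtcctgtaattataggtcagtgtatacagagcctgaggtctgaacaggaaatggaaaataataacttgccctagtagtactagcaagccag
TNFAIP3 60.8 kb downstream, lower in p42: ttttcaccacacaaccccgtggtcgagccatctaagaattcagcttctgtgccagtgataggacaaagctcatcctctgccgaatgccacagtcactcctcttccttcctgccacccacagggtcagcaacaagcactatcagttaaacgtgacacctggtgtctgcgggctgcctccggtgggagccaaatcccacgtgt

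NFKB2 had 2 regions that set p42 apart, 1 in each direction, and RELB had none. In NFKB2, the weak region at 25.5 kb (chr10:102419617-102419775), at a promoter of the neighbours FBXL15 and PSD, had 47.3 and 30.4 in p42 cells and no peak elsewhere. Its strongest distal region lay at 9.9 kb (chr10:102403884-102404078, a coding exon of PSD), with 93.4 and 88.7 in p42, 74.2 and 92.4 in p30, and 86.5 and 90.3 in EV cells. In RELB, the intron at 15.7 kb (chr19:45017003-45017398), with an AP-1 match, had 95.6 and 92.1 in p42, 93.5 and 99.0 in p30, and 96.7 and 92.9 in EV cells. The lists did not separate by line in either region. Over 34 distal regions (the 24 that set p42 apart, those that set p30 apart, and the strongest of each gene) the intervals were apart in 4 of 316 pairs of lists. All of these lay at REL and between p42 DMSO and a p30 or EV list. Only lists with a peak entered the pairs, and pairs within a line were counted too. Regions with a peak in the p42 lists alone thus gave no comparison of p42 with p30 or EV cells.

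Regions that set p30 or EV apart were few. Both p30 lists stood above the 4 others in 2 regions (1.036%, against 0.953%) and below them in 2 (1.036%, against 0.84%). Of those above, the region 38.3 kb from the TNFAIP3 start (chr6:137905429-137905530) had 26.8 and 40.2 in p30 cells and no peak elsewhere. The pair below also lay at TNFAIP3. At 43.5 kb (chr6:137910630-137910788) p30 cells had no peak in DMSO and 25.4 in Tm, against 67.8 and 47.4 in p42 and 67.4 and 46.4 in EV cells. At 43.8 kb p30 had no peak, against 13.2 and 12.3 in p42 and 28.1 and 32.5 in EV cells. Both EV lists stood above in 4 regions (2.073%, against 0.875%) and below in 3 (1.554%, against 1.18%). Of those above, the region 0.9 kb before the TNFAIP3 start (chr6:137866253-137866383), with an AP-1 match, had 41.2 and 53.1 in EV cells, 29.3 in p42 DMSO and no other peak. Of those below, 2 were the NFKB1 regions given above, and the other lay 54.9 kb from the TNFAIP3 start (chr6:137921848-137922182), with 64.8 and 71.1 in EV cells and 82.7 to 87.5 in the others.

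With Tm more regions lost than gained a peak around these genes in all 3 lines. In p42 cells 38 of 163 regions lost their peak (23.31%, background 27.5%) and 14 gained one (8.589%, 11.6%). In p30 cells 32 of 140 were lost (22.86%, 23.6%) and 9 gained (6.429%, 13.2%). In EV cells 21 of 139 were lost (15.11%, 16.3%) and 15 gained (10.79%, 18.8%). The Tm list was the shorter in p42 and p30 cells and the longer in EV cells, so list length moved with the balance in p42 and p30 cells, and its part was not tested beyond the next values. At equal list length p42 cells lost 14 of 125 regions (11.2%, background 19%) and gained 12 (9.6%, 14.6%). The p30 cells then lost 27 of 135 (interval 14.12 to 27.54%, background 18.6%) and gained 9 (6.667%, 16.3%), and EV cells lost 22 of 139 (15.83%, 18.7%) and gained 15 (10.79%, 15.7%).

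The 3 Tm lists stood at least 10 points above the 3 DMSO lists in 0 regions (interval 0.0 to 1.952%, background 0.307%). They stood as far below them in 3 (1.554%, against 0.8%). At 55.9 kb from RELA (chr11:65607123-65607228), at a promoter in an intron of MAP3K11, a kinase upstream of JNK, the DMSO lists of p42, p30 and EV cells had 38.4, 37.9 and 47.0, and no Tm list had a peak. Just inside TNFAIP3, 0.9 kb from its start (chr6:137868111-137868252), the DMSO values were 30.2, 59.6 and 29.6 in p42, p30 and EV cells, and with Tm p42 cells had no peak, p30 cells 15.3 and EV cells 4.1. At 45.0 kb in REL (chr2:60926441-60926727) the DMSO values were 57.3, 50.5 and 48.4 and the Tm values 38.1, 14.2 and 12.3 in the same order. These regions had 7 to 21 summit tags.

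The strongest gains and losses with Tm differed in how many other lists held the peak. In p42 cells the strongest gain lay 46.7 kb before NFKB2 (chr10:102347370-102347489, an intron of GBF1), at 56.1 in Tm, but p30 and EV cells had peaks there in both lists. In the REL-DT intron 32.1 kb before REL (chr2:60849333-60849407), which held a composite CEBP:AP1 match (TGTTGCAA), a peak at 34.0 was called in p42 Tm and in no other list. The strongest p42 loss lay 9.9 kb before NFKB2 (chr10:102384179-102384307), from 67.0 to no peak. The EV peak there, at 21.9 in DMSO, was also absent with Tm, and p30 cells had 27.8 in DMSO and 16.8 in Tm. In EV cells the strongest gain lay 38.4 kb from the NFKBIA start (chr14:35366255-35366402), at 57.2, where p42 and p30 cells had peaks of 25.5 to 41.1 in both lists. In p30 cells the strongest loss lay 26.1 kb from NFKBIA (chr14:35378577-35378644), where p30 DMSO, at 50.5, was the only list with a peak.

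Across all 193 regions, an AP-1 match within 100 bp of the summit was found in 28 (14.51%, against 12.93% of all regions) and a C/EBP match in 16 (8.29%, against 13.1%). A κB match was found in 7 (3.627%, against 2.308%), of which 4 lay within 2 kb of the start of NFKB2, REL or TNFAIP3 and 1 inside TNFAIP3 at 15.6 kb. An ATF4 match (TGATGNAA) was found in 5 (2.591%, against 4.587%), and a CRE (TGACGTCA) in none (against 0.2164%). A composite CEBP:AP1 match was found in 2 (1.036%, against 1.164%). Matches were sought on both strands, and an AP-1 or C/EBP match could share bases with a composite one. Among the 15 regions higher in p42, 1 held a C/EBP and 4 an AP-1 match, whereas 25.78% of the 27252 such regions genome-wide held a C/EBP match and 9.427% an AP-1 match. A composite match was held by 1 of the 15, 3.5 kb from the NFKBIA start, against 3.108% genome-wide. Among the 9 lower in p42, 2 held an AP-1 match, against 29.81% of 5645.

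The other genes of the pathway, 27 kinases, adaptors, IκB proteins and feedback regulators, likewise had a promoter peak in all 6 lists in 27 of 27 cases. Of the 745 regions in their windows 66 stood higher in both p42 lists (8.859%) and 7 lower (0.9396%), while 44.56% had a peak in all 6 lists. The share lower in p42 was thus 0.9396% there, against 4.663% for the subunit and inhibitor genes and 1.59% for all regions, and the difference was not tested. Of those with a peak in p42 or p30 cells in DMSO, 24.09% were open in p42 and not in p30, against 30.8% of all regions, and 10.24% in p30 and not in p42, against 14.5%.

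Among 10678 genes whose promoter ranged by at least 5 points, the patterns closest to the members over the 6 lists were those of COPZ2 and CNR2 for NFKB1, MAP3K20 and POMP for NFKB2, RNASET2 and EIF4E for REL, ZSCAN26 for RELA, APOL3 and TNC for NFKBIA and ZMIZ2 for TNFAIP3. The distances ran from 1.009 points for MAP3K20 to 2.331 for EIF4E, and RELB, which ranged by 4.7 points, was not compared.

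Among the members with a peak in all 6 lists, those that varied most at TNFAIP3 and REL did not separate by line or by Tm. At 10.5 kb before TNFAIP3 (chr6:137856539-137856849, an intron of the lncRNA WAKMAR2) the percentile ran from 1.6 in p42 Tm to 81.1 in EV DMSO, with 51.5 in p42 DMSO, 43.2 and 56.2 in p30, and 55.8 in EV Tm. That range of 79.5 points came from summits of 4 to 17 tags. At 44.1 kb before REL (chr2:60837334-60837599, a REL-DT intron) p42 had 65.9 and 21.2, p30 36.8 and 40.4, and EV 4.4 and 59.1.

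Regions lay close to the limit of 50 kb on both sides. The region nearest to it on the inside lay 49.6 kb from RELB (chr19:44951703-44951834), with 67.1 and 54.4 in p42, 59.1 and 3.5 in p30, and 26.5 and 28.3 in EV cells. The nearest on the outside, 50.6 kb from NFKB2, had a peak in p42 DMSO alone, at 28.1.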

How the data were processed

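ATAC-seq reads of 12 KO-52 libraries were processed by the authors, per the labels and methods, with Trim Galore 0.6.6, Bowtie2 2.4.4 (hg38), Picard duplicate removal, MACS2 and bedtools. The methods describe these steps under ChIP-seq and ATAC-seq together and name neither a Tn5 shift nor a mitochondrial filter. The authors pooled the 2 replicates of each condition before the deposited calling. The deposited fold enrichment is a ratio of the summit pileup to the local background, and the deposited −log10 p and −log10 q refer to the same background. The deposited summit is an offset in bp. None is normalized between lists.

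Overlapping or adjoining peaks of the 6 lists (autosomes, X and Y) formed 1 region, and peaks were ranked within a list by −log10 q. Where a region held several peaks of a list, the strongest counted. The summit tags were solved from fold and −log10 p and came out whole (within 0.001 of −log10 p) for 100% of peaks. Depth was estimated as the lowest background times 2700000000 bp divided by the shortest peak. A self-test on simulated peaks recovered the planted tags. Promoters were regions within 1 kb of a GENCODE release 44 start, and annotations refer to the summit. Shares have 95% Wilson intervals, and tags exact Poisson intervals, both for counting error only. With 1 pooled list per condition no test was run.

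The members, the pathway list and the markers were chosen with earlier results of these data known. Regions were named by fixed rules: promoters, the strongest distal region, regions separating lines or Tm by 10 points, the strongest presence differences, and the widest range. For the separating regions a list without a peak was placed at the bottom of the percentile scale. The region 60.8 kb from TNFAIP3 is named as its strongest distal one. Those at 37.2 and 80.2 kb from REL, 13.7, 136.3 and 157.6 kb from NFKB1 and 3.5 kb from NFKBIA and the second NFKB2 promoter region were chosen after their values were seen. Sequences come from hg38 and from RefSeq (GRCh38.p14), which matched 6 of the 7 genes, RELB being the exception. One region that is in the counts is not reported by itself here. Alternatives were stricter peaks, equal list length, a depth-scaled threshold, other windows, 50% overlap and other rankings. Python 3.11.15, numpy 2.4.6, scipy 1.17.1, pandas 2.3.3 and matplotlib 3.10.9 were used.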

Additional observations from a re-analysis of the deposited data

Results flagged for a closer look

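In 11 of the 193 regions, the peak was gained with Tm in 1 line and lost in another, which is 5.699% against 6.662% of all regions. This was taken up because the lines moved in opposite directions, and the difference between lines was not tested. The regions were at NFKB1 (8.6 kb before and 162.0 kb after the start), NFKB2 (18.7 and 7.9 kb before), REL (7.6 and 58.3 kb after), RELA (47.0 kb after), NFKBIA (6.3 and 29.0 kb after) and TNFAIP3 (36.6 and 34.9 kb before).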

How the results depend on the processing

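When the holding list needed a −log10 q of 10 or more, 1 region was open in p42 and not in p30 in DMSO and 0 the reverse, Tm gained 0 regions in each line and removed 1 in p42 and 0 in p30 and EV cells, and 44 regions were in all 6 lists. At equal list length 14 were open in p42 and not in p30, 14 were lost with Tm in p42, and 5 stood higher in both p42 lists. With windows of 25 kb, which held 114 regions, the p42-only and p30-only counts in DMSO were 22 and 10, losses with Tm 23 (p42), 14 (p30) and 13 (EV), gains in EV 6, and regions in all lists 52. With 100 kb, which held 340 regions, they were 65 and 34, losses 62, 52 and 39, gains 23 (p42), 18 (p30) and 28 (EV), regions in all lists 149, and those higher in p42 30. These 2 changes follow from the size of the window. By 50% overlap per peak, Tm gained 25 in p42 and 16 in p30 cells. A gap of 20 points left 8 regions higher and 3 lower in p42. Ranked by fold, the median promoter percentile was 79.3, and ranked among regions in all 6 lists 84.3, against 90.8. The depth-scaled threshold left every count within 1.5 times, and for changes other than the windows the cause was not tested. Ranked by fold enrichment, 13 of the 15 and 7 of the 9 separated regions kept their gap of 10 points, and under the depth-scaled threshold 13 and 9 did. The alternatives for the p42 separation were chosen after seeing the data. Absent peaks at 22250000 to 29980000 tags are below the calling threshold only. No paired analysis was possible because the authors pooled both replicates of each condition.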
